A study of Mus musculus with 8 samples.

Results

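Oxidative phosphorylation genes were followed in primary murine articular chondrocytes exposed to IL-1β, a proinflammatory cytokine linked to osteoarthritis. Genes were taken by symbol: names beginning with Ndufa, Ndufb, Ndufc, Ndufs, Ndufv, Uqcr, Cox4 to Cox8 or Atp5 for the nuclear genome, and mt-Nd, mt-Co, mt-Cytb or mt-Atp for the mitochondrial genome. Of 115 matching symbols, 9 ended in -ps, which marks pseudogenes, and 9 of the remaining 106 did not reach a CPM (the count scaled to the total count of its sample) above 1 in at least 4 of the 8 samples. The 97 members left, of 14404 genes that passed this filter among 54658 gene symbols, comprised 75 nuclear subunits, 13 mitochondrial mRNAs and 9 assembly factors. The nuclear subunits divided into 36 of complex I, 8 of complex III, 15 of complex IV and 16 of complex V. Ndufa4 and its paralog Ndufa4l2 were counted to complex IV, and so was Cox7a2l, by its name. The assembly factors were Ndufaf1 to Ndufaf8 and Atp5s, which carry a subunit-like name but help to build complex I or complex V.

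RNA-Seq covered 4 samples treated with IL-1β at 1 ng/mL for 24 h and 4 treated with vehicle. Both groups were articular chondrocytes released by collagenase from femoral heads, taken from wild-type mice at 3 weeks of age, and grown in high-glucose DMEM with fetal bovine serum. The deposited values were whole-number read counts per gene, which were scaled by TMM (edgeR's correction for differences in composition between libraries) before edgeR's quasi-likelihood test was run. Nothing in the sample descriptions says that samples of a group came from separate mice or cultures, so p-values refer to the spread between these samples, which may be technical. Since this is bulk RNA from the culture, fewer cells of a type and less RNA per cell cannot be told apart.

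In mitochondria, electrons from NADH enter at complex I, pass through ubiquinone to complex III, and are carried by cytochrome c to complex IV, which reduces oxygen. The proton gradient that complexes I, III and IV build is used by complex V, the ATP synthase. Each of these 4 complexes combines subunits encoded in the nucleus with subunits encoded in mitochondrial DNA, whereas complex II is wholly nuclear. Chondrocytes live at low oxygen and draw much of their ATP from glycolysis.

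Total counts were 10992355 to 17104351 per sample with IL-1β and 13970959 to 17456063 with vehicle, at which 3 counts correspond to 0.172 to 0.273 CPM. TMM factors lay between 0.984 and 1.01, and the median log2 fold change over all genes tested was -0.0012. Gm26917, a row of very high count, took 13.8 to 14.6% of the counts in the IL-1β samples and 13.2 to 13.9% in the vehicle samples. All 8 chondrocyte markers were expressed, and their summed level was 3450 to 3806 CPM with IL-1β against 14183 to 14751 CPM with vehicle. The 4 hemoglobin genes listed as erythroid markers had at most 3 counts in every sample, the 4 endothelial markers summed to 0.649 to 1.25 CPM in all samples, and the 3 adipocyte markers to 0.811 to 1.44 CPM. The 6 leukocyte markers summed to 29.9 to 33.5 CPM with IL-1β and 14.8 to 16.8 with vehicle, almost wholly from Cd68 and Cd14, while Ptprc, the pan-leukocyte marker, averaged 0.148 and 0.107 CPM. The 4 synovial fibroblast markers summed to 1985 to 2100.4 CPM with IL-1β and 840.0 to 892 with vehicle, mostly from Prg4, which articular chondrocytes of the surface zone also express, whereas Thy1 averaged 0.175 CPM with IL-1β and 0.434 with vehicle. The 5 osteoblast markers summed to 29.8 to 36.9 CPM with IL-1β and 94.3 to 107 with vehicle, and the 5 skeletal muscle markers to 0.36 to 0.772 CPM and 1.85 to 2.83 CPM. The part of these shifts in the results on respiratory genes was not tested.

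Stretches of sequence are given for the mitochondrial mRNAs whose counts are shared with nuclear copies, since that limits what can be read from them. Chromosome 1 holds an unprocessed pseudogene block (GRCm38, chr1:24611535-24616197, minus strand) that repeats the mitochondrial genome from within mt-Co1 to within mt-Nd4, and Gm13340 on chromosome 2 repeats mt-Co1 over its 1545 bases at 97.6% identity. The 90 bases below are from mt-Co1 and its pair of copies, with bases that differ from mt-Co1 in capitals. The copy on chromosome 1 did not differ in this stretch, and the copy on chromosome 2 differed at 5 bases.
mt-Co1, chrM:6498-6587, plus strand: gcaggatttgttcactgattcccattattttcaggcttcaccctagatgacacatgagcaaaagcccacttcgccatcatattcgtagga
Gm29216, chr1:24615991-24616080, minus strand: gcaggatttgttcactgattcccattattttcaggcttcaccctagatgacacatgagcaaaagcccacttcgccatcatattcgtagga
Gm13340, chr2:22588388-22588477, minus strand: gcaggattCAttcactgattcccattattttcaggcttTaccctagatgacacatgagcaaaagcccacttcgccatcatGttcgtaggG

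For mt-Co2, the start of the mRNA is shown with the start of its copy Gm28661, which was identical to it over the 681 bases aligned. A read from within such a stretch matches both places equally well.
mt-Co2, chrM:7013-7102, plus strand: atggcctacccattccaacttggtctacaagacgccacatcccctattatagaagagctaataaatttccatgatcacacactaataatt
Gm28661, chr1:24615476-24615565, minus strand: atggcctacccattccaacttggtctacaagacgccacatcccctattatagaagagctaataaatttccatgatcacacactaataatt

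Promoter sequence was taken from RefSeq (GRCm38.p6), as 250 bases before to 50 bases after the start site, for the 69 of 84 nuclear members that matched. The windows were searched on both strands for GCGCATGCG (NRF1, nuclear respiratory factor 1), CCGGAAGT (GABP, also called nuclear respiratory factor 2) and AAGATGGCG (YY1), 3 factors known for sites in respiratory gene promoters. At least 1 of these strings lay in a window of 19 of 61 nuclear subunits (31.1%), of 15.8% of the 10081 tested genes with a window and of 7.48% of all 27025 RefSeq genes with a window. A gene with several windows was counted once, if any of them matched. NRF1 matched in 13.1% of nuclear subunits against 4.12% of tested genes, GABP in 8.20% against 9.10%, and YY1 in 11.5% against 3.6%. Among subunits that were lower with IL-1β, 3 of 21 held a match (14.3%), compared with 16 of the other 40 (40.0%), which is given as a description without a test. The 3 matches among lower subunits are shown, with the matching bases in capitals, beside a stretch of the Atp5g1 window, in which none of the strings was found. In Ndufa11 and Cox6a1, the NRF1 string matched on both strands with an overlap, over 10 bases that begin 60 and 162 bases before the start site. In Ndufa9, named for this match after its values were seen, the YY1 string began at base 30 after the start site.
Ndufa11, chr17:56717666-56717746, plus strand: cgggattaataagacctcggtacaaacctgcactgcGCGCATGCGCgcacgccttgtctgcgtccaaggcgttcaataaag
Cox6a1, chr5:115349076-115349156, minus strand: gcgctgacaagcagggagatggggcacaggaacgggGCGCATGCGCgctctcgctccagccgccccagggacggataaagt
Ndufa9, chr6:126849095-126849175, minus strand: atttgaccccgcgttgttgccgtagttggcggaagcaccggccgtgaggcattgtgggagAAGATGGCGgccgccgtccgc
Atp5g1, chr11:96075601-96075681, minus strand: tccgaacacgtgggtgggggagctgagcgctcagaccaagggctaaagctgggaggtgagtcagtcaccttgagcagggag

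With IL-1β, respiratory chain genes moved little, and those that changed were mostly lower. At an adjusted p-value under 0.05 (Benjamini-Hochberg, over all genes tested), 27 of the 97 members were lower (27.8%) and 5 were higher (5.15%), compared with 19.8% lower and 20.4% higher among all genes tested. Of the 97 log2 fold changes, 89 lay within 0.25 of 0, against 9561 of the 14404 over all genes tested. Cox4i2 was the only member past the 2-fold threshold of the study's differential test (a log2 fold change above 1 or below -1 in addition), which 5.21% of all genes passed. It did not reach the stricter log2 fold change of 2 that the study set for pathway enrichment, which 1.27% of all genes passed. The ranges of the 2 groups did not overlap in 26 of the 97 members, of which 24 had the lower range with IL-1β, and in 36.8% of all genes tested. When a fold of 1.2 had to be exceeded (glmTreat in edgeR), 3 members remained lower (Cox4i2, Atp5g1 and Ndufa11) and 1 higher (Ndufa4l2). The number of higher members rested on single samples: it was 9 without IL-1β replicate 1, 2 without IL-1β replicate 3 or vehicle replicate 3, and 3 without IL-1β replicate 4 or vehicle replicate 4.

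**Figure D1:**
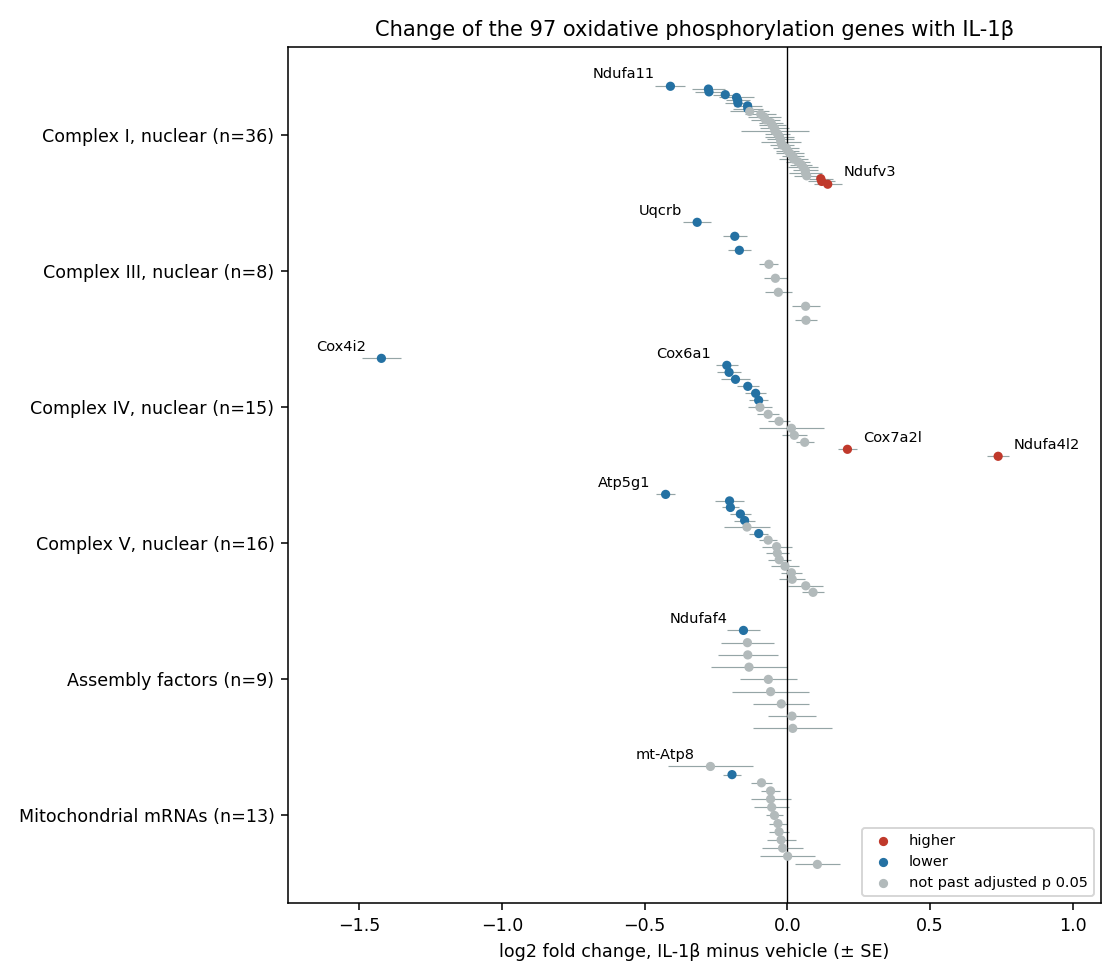
Each point is the log2 fold change of a member (x axis, IL-1β minus vehicle, with its standard error as a bar), grouped by complex and genome, in red where higher, blue where lower and grey where the adjusted p-value did not pass 0.05. Most points lie close to 0, with Cox4i2 at -1.42 and Ndufa4l2 at 0.74 standing apart.

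The nuclear subunits held nearly all of the calls. Of the 75, 25 were lower and 5 were higher (33.3% and 6.67%, beside 19.8% and 20.4% over all genes tested). Their median log2 fold change was -0.0431. Of the 13 mitochondrial mRNAs, 1 was lower and 0 were higher (7.69% and 0%), and their median was -0.0449. No mitochondrial mRNA was higher at an unadjusted p under 0.05 either, or by DESeq2, where 2 and 1 were lower, respectively. The mitochondrial median rested on single samples: it was -0.0279 without IL-1β replicate 3, -0.0189 without vehicle replicate 3, -0.0709 without IL-1β replicate 4 and -0.0777 without vehicle replicate 4. Standard errors had a median of 0.0441 for nuclear and 0.0512 for mitochondrial genes. Whether the 2 sets of genes differed was not tested, since members of a group are not replicates.

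Summed over the nuclear subunits, the level was 6161, 6212, 6502 and 6528 CPM in the IL-1β samples and 6674, 6774, 6553 and 6573 CPM in the vehicle samples. The groups did not overlap, although the gap between the nearest samples was small beside the range within the IL-1β group. The mean was 6351 ± 191 CPM against 6644 ± 102 CPM (SD, n = 4), a change of -4.41%. For the 13 mitochondrial mRNAs the sums were 9888, 10509, 10495 and 10200 CPM with IL-1β and 10392, 11273, 11302 and 10384 with vehicle, and these groups overlapped, with a change of -5.21% in the mean. Much of this lay in mt-Co1, whose mean went from 2490 CPM with vehicle to 2177 CPM with IL-1β. Over the 5 mRNAs outside the stretch that chromosome 1 repeats, the sum changed by -2.78%, with overlap. That change was -1.21% without vehicle replicate 2 and -4.58% without vehicle replicate 4. The ratio of the mitochondrial to the nuclear sum was 1.62 ± 0.0538 with IL-1β and 1.63 ± 0.0774 with vehicle, so that the difference was well within the spread of either group. As a share of all counts, mitochondrial mRNAs made up 0.998 to 1.06% with IL-1β and 1.04 to 1.13% with vehicle. By complex, the nuclear sum changed by -7.63% for complex V and by -4.37% for complex III without overlap of the groups, and by -2.94% for complex I and -0.696% for complex IV with overlap. Without IL-1β replicate 1 the change for complex I was -1.81%. That for complex IV had no stable direction, being 0.189% without IL-1β replicate 1, 0.105% without IL-1β replicate 2, -0.0178% without vehicle replicate 2 and -1.90% without IL-1β replicate 3. It lay between -1.18% and -1.12% without IL-1β replicate 4, vehicle replicate 1 or vehicle replicate 3. The complex IV sum includes Ndufa4l2, whose mean rose from 110.6 CPM with vehicle to 184.4 CPM with IL-1β. Of the 15 genes in this sum, 7 were lower and 2 were higher, so the sum does not describe most of them. The 2 higher ones, Ndufa4l2 and Cox7a2l, were counted to complex IV as a paralog of Ndufa4 and by name.

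**Figure D2:**
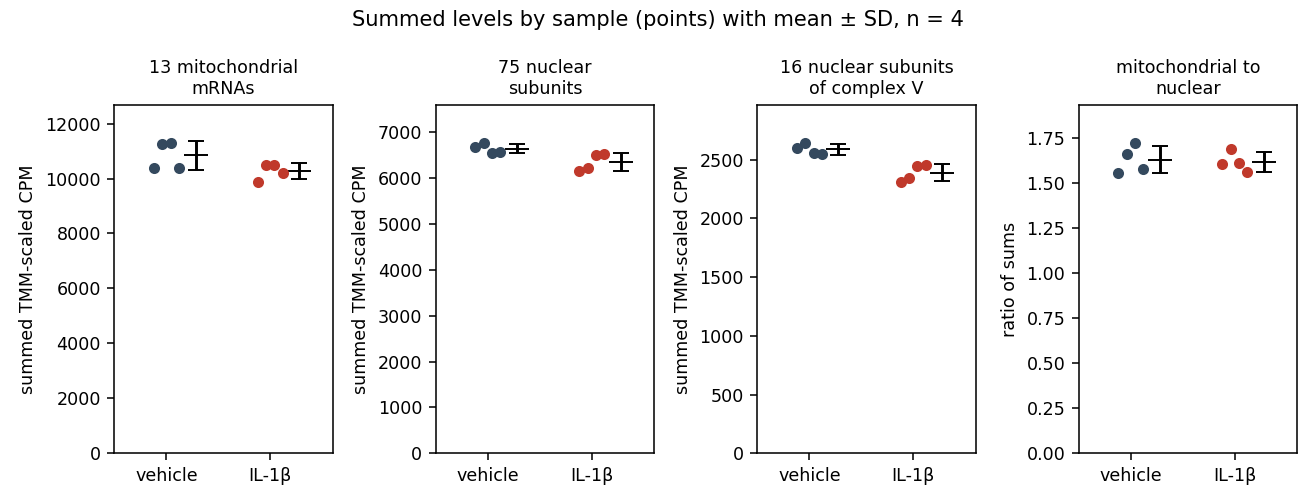
Summed TMM-scaled CPM of the 13 mitochondrial mRNAs, the 75 nuclear subunits and the 16 nuclear subunits of complex V, and the ratio of the first to the second, are drawn per sample (points) with mean ± SD (n = 4 per group). The nuclear sums do not overlap between groups, while the mitochondrial sums and the ratio (1.62 with IL-1β, 1.63 with vehicle) do.

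Complex IV contained the members with the lowest and the highest log2 fold change, both of them isoform genes. Cox4i2 (chr2:152754173-152765037, plus strand, GRCm38) encodes the alternative isoform of subunit 4, known from lung and from cells at low oxygen, and was 10.4, 11.3, 11 and 11.3 CPM in the IL-1β samples and 30.2, 29.7, 27.0 and 31.1 CPM in the vehicle samples. Every IL-1β sample was far below every vehicle sample. The log2 fold change was -1.42 (SE 0.0688, edgeR, adjusted p = 2.35e-16), and it was called in all 17 alternatives tried, with an adjusted p of at most 5.91e-14. Cox4i1, the ubiquitous isoform, was 149, 155, 166 and 157 CPM with IL-1β and 149.9, 152, 149.7 and 149.6 with vehicle. Its groups overlapped, and the log2 fold change of 0.06 did not pass the test (SE 0.0317, edgeR, adjusted p = 0.133), except without IL-1β replicate 1, where it was 0.08 (adjusted p = 0.0434). Scaled to the exon length listed for each gene, Cox4i2 made up 27.8 ± 1.2% of the 2 isoforms with vehicle and 12.1 ± 0.407% with IL-1β (mean ± SD, n = 4). The listed lengths sum all exons, 788 bases for Cox4i2 and 1550 for Cox4i1, whose longest transcripts have 733 and 765 bases. By transcript length both shares would be lower, and the fall with IL-1β would remain.

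Ndufa4l2 (chr10:127514967-127517154, plus strand) encodes a paralog of the complex IV subunit Ndufa4, is a known HIF-1 target, and moved the other way from Cox4i2. Its level was 179, 174, 194 and 191 CPM with IL-1β and 107, 109, 107 and 120.0 with vehicle. All IL-1β samples were higher, and the highest vehicle sample, replicate 4, lay well below them. The log2 fold change was 0.74 (SE 0.0383, edgeR, adjusted p = 1.2e-15), a rise of 66.9%. Ndufa4 itself was 84.3 to 89.0 CPM with IL-1β and 90.8 to 95.2 with vehicle, and fell by 0.11 on the log2 scale (SE 0.0356, edgeR, adjusted p = 0.0135). Per kilobase of exon, the ratio of Ndufa4l2 to Ndufa4 went from 1.5 ± 0.0704 with vehicle to 2.70 ± 0.172 with IL-1β (mean ± SD, n = 4). The lengths used sum all exons, 1095 bases for Ndufa4l2 and 1381 for Ndufa4, whose longest transcripts have 934 and 610 bases. Which of the 2 genes is the higher with vehicle therefore depends on the length chosen, while the relative change between treatments does not.

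**Figure D3:**
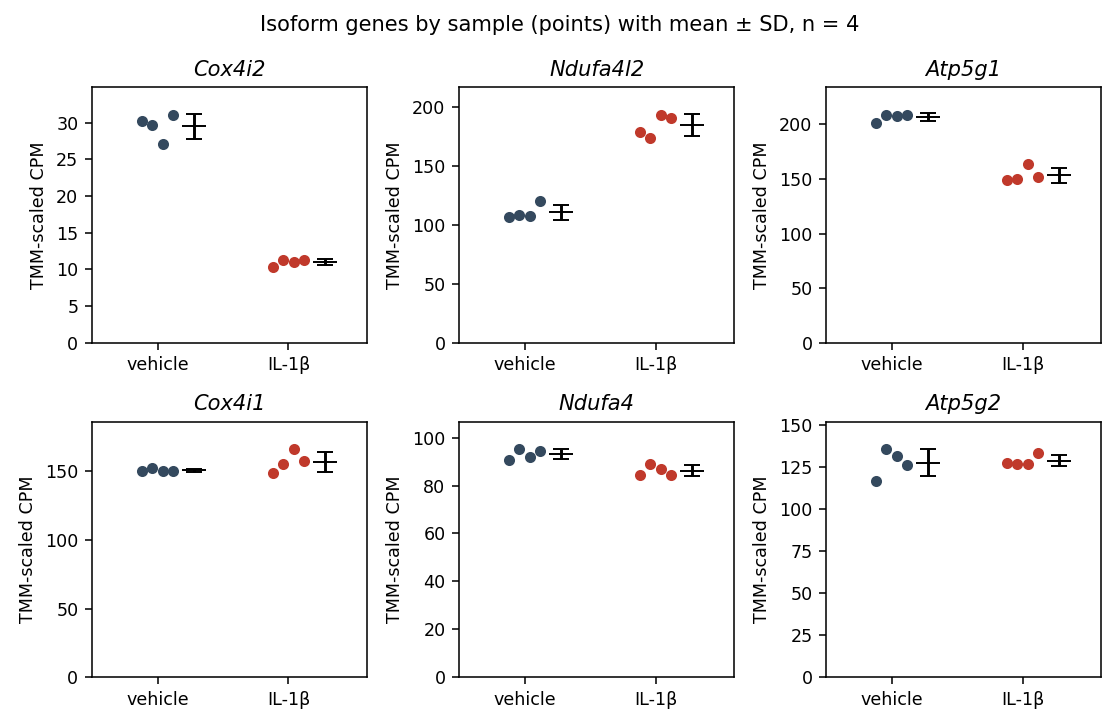
TMM-scaled CPM (y axis, from 0) in each sample is shown for Cox4i2 and Cox4i1, Ndufa4l2 and Ndufa4, and Atp5g1 and Atp5g2, with mean ± SD (n = 4) beside the points. The upper gene of each pair separates the groups (Cox4i2 from 27.0 to 31.1 down to 10.4 to 11.3 CPM), while Cox4i1 and Atp5g2 overlap.

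The other subunits of complex IV shifted by small amounts. Of its 15 nuclear subunits, 7 were lower and 2 were higher (46.7% and 13.3%, beside 19.8% and 20.4% over all genes tested). Their median log2 fold change was -0.0957. Both higher genes, Ndufa4l2 and Cox7a2l, were counted to complex IV by paralogy or by name. Cox7a2l, known for its part in supercomplexes of complexes III and IV, was the other higher gene, at 106, 108, 106 and 104 CPM with IL-1β and 90.7, 92.3, 92.6 and 90.8 with vehicle. The groups were tight and did not overlap, and the log2 fold change was 0.21 (SE 0.0332, edgeR, adjusted p = 6.32e-06). Its relative Cox7a2 fell by 0.18 on the log2 scale (SE 0.052, edgeR, adjusted p = 0.0058), from 41.3 to 48.2 CPM to 36.5 to 40.9 CPM. Cox6a1, the nuclear member with the highest level per kilobase (364 CPM per kb with vehicle), was 206, 211, 239.7 and 223 CPM with IL-1β and 247, 263, 249 and 262 with vehicle, and its log2 fold change was -0.21 (SE 0.0388, edgeR, adjusted p = 5.35e-05). Its muscle and heart isoform Cox6a2 was at 6.27 to 8.37 CPM and 6.90 to 8.61 CPM, with a log2 fold change of 0.01 that did not pass the test. Of the subunits next to the catalytic core, Cox5b fell by 0.14 on the log2 scale (SE 0.038, edgeR, adjusted p = 0.00415), and Cox5a did not pass the test (log2 fold change 0.02, adjusted p = 0.708). A near-identical copy, Gm11273, repeats 45.1% of the longest Cox5b transcript. Named after their values were seen, the small subunits Cox7b and Cox7c were also lower (log2 fold changes -0.20 and -0.10). The 6 subunits that did not pass the test lay between -0.10 (Cox6b1) and 0.06 (Cox4i1). The muscle isoforms Cox7a1 and Cox8b were under the filter on low values, with 6 to 14 and 0 to 2 counts per sample.

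Complex V showed lower levels in 6 of its 16 nuclear subunits and higher levels in 0 of them. These shares were 37.5% and 0%, beside 19.8% and 20.4% over all genes tested. By edgeR, 1 was higher at an unadjusted p under 0.05, and 0 were higher by DESeq2. The lowest log2 fold change among the 16 was that of Atp5g1 (chr11:96068852-96075670, minus strand), 1 of 3 genes whose mature product is the same c subunit of the proton-conducting ring. Its level was 149, 150.0, 164 and 152 CPM with IL-1β and 201, 209, 208 and 209 with vehicle. The groups were far apart, and the log2 fold change was -0.43 (SE 0.0328, edgeR, adjusted p = 9e-12), a change of -25.6%. Atp5g2 and Atp5g3 did not pass the test, with log2 fold changes of 0.01 (adjusted p = 0.803) and -0.04 (adjusted p = 0.622). Atp5g1 therefore went from 43.2 ± 0.869% to 36.4 ± 1.31% of the counts of the 3 genes, and the sum of the 3 changed from 478 ± 8.34 to 422 ± 22.6 CPM (mean ± SD, n = 4). A processed pseudogene, Gm10039, is 99.8% identical to Atp5g1 over 411 bases, and reads from there could be counted to either.

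Among the catalytic subunits of ATP synthase, Atp5b (beta), the most abundant nuclear member by CPM, was 610.5, 653, 654 and 657 CPM with IL-1β and 733, 761, 733 and 730.2 with vehicle. The groups did not overlap, and the log2 fold change was -0.20 (SE 0.0308, edgeR, adjusted p = 4.64e-06). Its partner Atp5a1 (alpha) was at 459 to 485 CPM and 481 to 510.3 CPM, with an overlap at the edge, and its log2 fold change of -0.07 did not pass the test (adjusted p = 0.0915), although it did without vehicle replicate 4 (adjusted p = 0.0498). Of the central stalk, Atp5c1 (gamma) fell by 0.16 and Atp5e (epsilon) by 0.20 on the log2 scale (adjusted p = 0.00079 and 0.00234). Of the peripheral stalk, Atp5o changed by -0.15 (adjusted p = 0.00188) and Atp5f1 by -0.10 (adjusted p = 0.0196). The call for Atp5f1 was lost without vehicle replicate 1 or vehicle replicate 2 (adjusted p = 0.107 and 0.0658), and reads of Atp5o, of whose exon bases 35.6% overlap other genes, are uncertain. Processed pseudogenes repeat 76.7% of the longest transcript of Atp5o and 43.4% of that of Atp5f1. The 10 subunits that did not pass the test lay between -0.14 (Atp5k) and 0.09 (Atp5d), and Atp5d was the subunit higher at an unadjusted p under 0.05. Without IL-1β replicate 1 or 2, 1 subunit was called higher.

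In complex I, 9 of 36 nuclear subunits were lower (25%) and 3 were higher (8.33%), beside 19.8% and 20.4% over all genes tested. The median log2 fold change was -0.0307, but -0.0552 without IL-1β replicate 4 and -0.0578 without vehicle replicate 4. The lower genes were led by accessory subunits. Ndufa11 (chr17:56717767-56722141, plus strand), an accessory subunit of the membrane arm, was 30.6, 32.7, 31.6 and 35.3 CPM with IL-1β and 42.3, 41.1, 43.1 and 47.0 with vehicle. These groups did not overlap, with a log2 fold change of -0.41 (SE 0.0528, edgeR, adjusted p = 2.38e-07), or -24.7%. Ndufb4 had 25.2 to 29.2 CPM with IL-1β and 30.0 to 33.9 with vehicle, and fell by 0.28 on the log2 scale (SE 0.0582, edgeR, adjusted p = 0.000303). A processed pseudogene, Ndufb4c, is identical to Ndufb4 over 390 bases, so that reads could be counted to either. Named after their values were seen, the other lower accessory subunits were Ndufb11, Ndufa9, Ndufab1, Ndufb10 and Ndufa5, with log2 fold changes between -0.27 and -0.14. The 24 subunits that did not pass the test lay between -0.13 (Ndufc2) and 0.07 (Ndufa7).

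The conserved core of complex I, which carries the flavin and the iron-sulfur clusters, was split. Ndufs1 was at 35.4, 39.2, 42.2 and 38.2 CPM with IL-1β and 44.1, 42.3, 42.1 and 43.1 with vehicle, and its log2 fold change was -0.14 (SE 0.0492, edgeR, adjusted p = 0.0248). Only IL-1β replicate 3 reached the vehicle range. Ndufs8 changed by -0.18 (SE 0.0618, edgeR, adjusted p = 0.0221), with groups that overlapped. The calls of Ndufs1 and Ndufs8 were each lost in 5 of 17 alternatives, among them DESeq2, where the adjusted p-values were 0.0672 and 0.161. Ndufs1 lost its call without IL-1β replicate 1 or 4 or vehicle replicate 1 or 4, and Ndufs8 without IL-1β replicate 1 or 2 or vehicle replicate 2 or 3. Ndufs3, Ndufs7, Ndufv1 and Ndufv2, also of the core, had log2 fold changes between -0.02 and 0.06, and none passed the test (lowest adjusted p = 0.269). The higher genes were Ndufv3 (log2 fold change 0.14, adjusted p = 0.0222), Ndufa6 (0.12, adjusted p = 0.0435) and, named after its values were seen, Ndufa13 (0.12, adjusted p = 0.0287). In each of these 3 the groups overlapped, and no subunit of complex I was higher by DESeq2. For Ndufa13, 30% of the exon bases overlap another gene. Without IL-1β replicate 3 or vehicle replicate 3, 0 were higher, and without IL-1β replicate 4 or vehicle replicate 4, 1 was. Ndufa6 lost its call in 9 of 17 alternatives (adjusted p up to 0.151), including the omission of any sample other than IL-1β replicate 1 and vehicle replicate 2. Ndufv3 lost it in 4, including the omission of IL-1β replicate 3, vehicle replicate 2 or vehicle replicate 3 (adjusted p = 0.167, 0.0513 and 0.0568).

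In complex III, 3 of 8 nuclear subunits were lower and 0 were higher (37.5% and 0%, beside 19.8% and 20.4% over all genes tested). The same counts were found at an unadjusted p under 0.05 and by DESeq2. Uqcrb, which binds near the ubiquinone site, was 40.5, 36.8, 36.7 and 35.2 CPM with IL-1β and 44.0, 46.8, 46.6 and 47.8 with vehicle. The groups did not overlap, and the log2 fold change was -0.32 (SE 0.048, edgeR, adjusted p = 3.64e-06). Processed pseudogenes repeat 62.8% of the length of the Uqcrb transcript. The core protein Uqcrc2 fell by 0.18 on the log2 scale (SE 0.0427, edgeR, adjusted p = 0.00087), as did Uqcr10 by 0.17 (SE 0.041, edgeR, adjusted p = 0.00144). Of the exon bases of Uqcrc2, 19.7% overlap another gene, which makes its reads uncertain. The other core protein, Uqcrc1, was at 0.07 (adjusted p = 0.177) and passed the test as higher without IL-1β replicate 1 (0.10, adjusted p = 0.0164). Uqcrfs1, the Rieske iron-sulfur protein, was at -0.04 (adjusted p = 0.461).

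Over 16 nuclear core subunits listed from the 4 complexes, 6 were lower (37.5%) and 0 were higher, compared with 19 lower (32.2%) and 5 higher among the 59 other nuclear subunits. Among all genes tested, 19.8% were lower and 20.4% higher. No core subunit was higher at an unadjusted p under 0.05, and by DESeq2 4 were lower and 0 were higher.

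Of the 9 assembly factors among the members, 1 was lower and 0 were higher. Their shares were 11.1% and 0%, beside 19.8% and 20.4% over all genes tested. Ndufaf4, which acts early in the assembly of complex I, was 28.9, 25.4, 26.3 and 29.6 CPM with IL-1β and 31.5, 31.8, 28.9 and 29.6 with vehicle. The groups overlapped, and the log2 fold change of -0.15 (SE 0.0578, edgeR, adjusted p = 0.0347) did not pass by DESeq2 (adjusted p = 0.0980) or without IL-1β replicate 2 or 3 or vehicle replicate 1 or 2. At an unadjusted p under 0.05, 1 was lower and 0 were higher, and by DESeq2 0 were called. The other 8 factors lay at 4.21 to 14.2 CPM with vehicle, with log2 fold changes between -0.14 (Ndufaf8) and 0.02 (Ndufaf6).

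The mitochondrial mRNAs lay in 2 ranges of level, which went with their place inside or outside the stretch that chromosome 1 repeats. Outside it, mt-Nd1, mt-Cytb, mt-Nd2, mt-Nd5 and mt-Nd6 had 2488, 2187, 871, 768 and 536 CPM per kb with vehicle. Within it, mt-Nd4l, mt-Co2, mt-Atp6, mt-Atp8, mt-Co3 and mt-Nd3 had 113, 97.2, 97, 72.7, 47.9 and 36.6 CPM per kb. The highest gene of the second range was below the lowest of the first in every sample. mt-Co1 and mt-Nd4, repeated in part, had 1611 and 472 CPM per kb. The copies carried counts of their own: Gm10925 had 1392 to 2236 counts per sample against 717 to 1140 for mt-Atp6, and mt-Co2 held 50.5 to 55.5% of the counts of mt-Co2 and Gm28661 together. How the counting treated reads with 2 equal places is not given in the sources used here, and how many reads of the 6 mRNAs were dropped or counted to a copy was not tested. When each mRNA was summed with its annotated copies, an alternative chosen after seeing the data, mt-Co1 was again the only mitochondrial mRNA called (log2 fold change -0.19, SE 0.0314, edgeR, adjusted p = 1.18e-05).

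**Figure D4:**
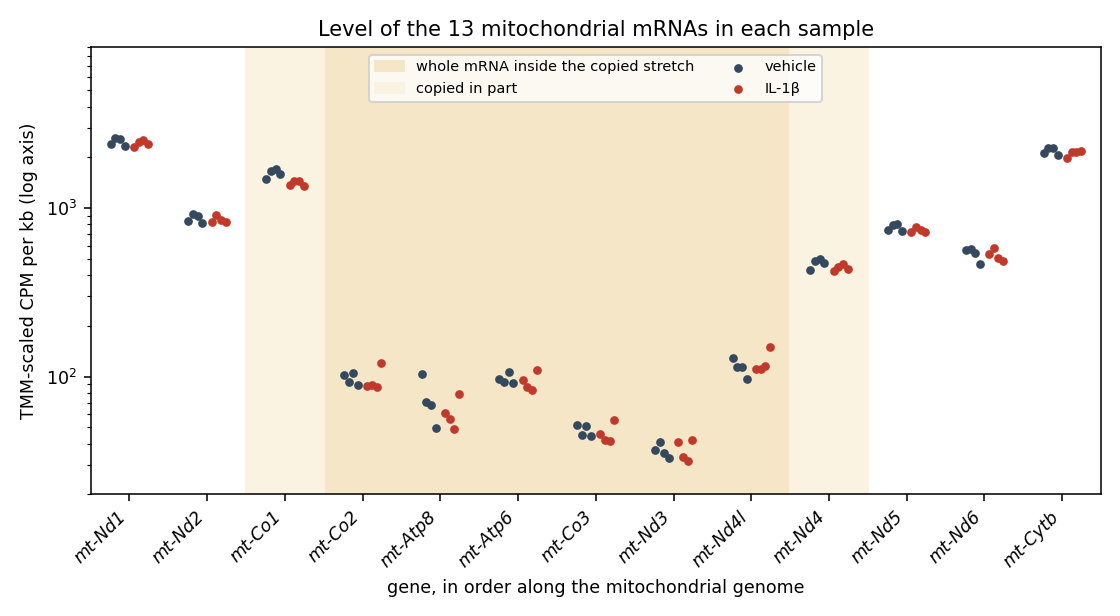
TMM-scaled CPM per kb (log axis) of the 13 mitochondrial mRNAs is drawn for each sample, in the order of the genes on the mitochondrial genome, with vehicle in dark blue and IL-1β in red, and shading where chromosome 1 repeats the gene wholly or in part. The 6 wholly repeated mRNAs, from mt-Co2 to mt-Nd4l, lie at 36.6 to 113 CPM per kb in vehicle means, below the 5 unshaded ones at 536 to 2488. mt-Co1 and mt-Nd4, shaded as repeated in part, lie at 1611 and 472.

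With IL-1β, mt-Co1 (chrM:5328-6872, plus strand), which encodes the catalytic subunit of complex IV, was 2124, 2234, 2249 and 2099.7 CPM and with vehicle 2295, 2558, 2628 and 2478 CPM. The nearest samples, vehicle replicate 1 and IL-1β replicate 3, were close but did not overlap. The log2 fold change was -0.19 (SE 0.033, edgeR, adjusted p = 2e-05), and its range over 18 alternatives was -0.23 to -0.17. The 5 mRNAs outside the repeated stretch had log2 fold changes between -0.06 and -0.02. None of them passed the test at the adjusted threshold, at an unadjusted p under 0.05 or by DESeq2. mt-Cytb, the mitochondrial subunit of complex III, was at 2285 to 2489 CPM with IL-1β and 2379.6 to 2614 with vehicle (log2 fold change -0.04, SE 0.0313, adjusted p = 0.275). mt-Nd1 was at 2220.3 to 2427 CPM and 2242 to 2504 CPM (log2 fold change -0.03, SE 0.0324, adjusted p = 0.468). mt-Nd6, the only mRNA encoded on the minus strand, which overlaps mt-Nd5 on the other strand, was at 254 to 303 CPM and 241 to 298 CPM, and whether the counting used strand is not given in the sources used here.

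For mt-Nd4, the log2 fold change was -0.09 (SE 0.0379, edgeR, adjusted p = 0.0588), which passed the test in 6 of 18 alternatives, among them those without IL-1β replicate 3 (adjusted p = 0.0183) or vehicle replicate 1 (adjusted p = 0.003). Among the 6 mRNAs within the repeated stretch, 0 passed the test, also at an unadjusted p under 0.05 and by DESeq2. IL-1β replicate 4 was the highest IL-1β sample in all 6, for instance at 82.3 CPM for mt-Co2, compared with 59.5 to 60.7 in replicates 1 to 3 and 61.2 to 71.5 with vehicle. Without this sample, mt-Co2, mt-Co3, mt-Atp6 and mt-Atp8 were lower (log2 fold changes -0.14, -0.16, -0.14 and -0.42), which brought the number of lower mitochondrial mRNAs to 5. The same number was 2 without IL-1β replicate 3, vehicle replicate 1 (mt-Nd4 in both) or vehicle replicate 4 (mt-Atp8). For mt-Atp8, with 9.98 to 16.1 CPM with IL-1β and 10.1 to 21.1 with vehicle, the standard error was 0.15, the largest among the mitochondrial mRNAs. The mitochondrial ribosomal RNAs mt-Rnr1 and mt-Rnr2 together had 85 to 386 counts in the IL-1β samples and 141 to 1198 counts in the vehicle samples, with the highest count in vehicle replicate 4, and their part in the results on mRNAs was not tested.

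Other genes of the pathway were described by lists, which like the members were chosen with earlier results of these data known. In complex II, the succinate dehydrogenase, 1 of 4 genes was lower and 0 were higher: Sdhb had 60.4, 57.2, 63.8 and 62.3 CPM with IL-1β and 70.4, 70.4, 70.2 and 73.0 with vehicle (log2 fold change -0.22, SE 0.0409, edgeR, adjusted p = 7.05e-05). Of 15 electron carriers and genes of ubiquinone synthesis, 3 were lower and 1 was higher (20% and 6.67%, beside 19.8% and 20.4% over all genes tested). Cycs, the somatic cytochrome c, was 90.9 to 99.2 CPM with IL-1β and 104 to 116 with vehicle (log2 fold change -0.23, SE 0.0373, edgeR, adjusted p = 9.08e-06). Coq2 and Coq10b fell by 0.18 and 0.23 on the log2 scale (adjusted p = 0.00914 and 0.00157), and Coq8b rose by 0.32 (adjusted p = 0.000369).

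Of 34 tested assembly factors with other names, 6 were lower and 2 were higher (17.6% and 5.88%), so that the share of lower genes was near the 19.8% over all genes tested. The lower ones with more than 10 CPM were Ecsit (complex I, log2 fold change -0.35), Bcs1l (complex III, -0.37), Cox10 (complex IV, -0.15) and Tmem70 (complex V, -0.19), with adjusted p-values of 8.26e-05, 0.000171, 0.0432 and 0.00277. Sdhaf1 and Sdhaf4, factors of complex II, were lower at 1.84 to 5.45 CPM (-0.51 and -0.41, adjusted p = 0.0209 and 0.0311). The higher ones were the complex IV factors Coa5 (0.18) and Coa7 (0.36), with adjusted p-values of 0.00111 and 0.00412.

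Of 17 genes that copy, transcribe or process mitochondrial DNA and RNA, 1 was lower and 1 was higher (5.88% each). The shares over all genes tested were 19.8% and 20.4%. Elac2, which trims the 3′ ends of mitochondrial tRNAs, was 37.8 to 44.4 CPM with IL-1β and 49.4 to 54.2 with vehicle (log2 fold change -0.34, SE 0.0499, edgeR, adjusted p = 2.28e-06). Top1mt, the mitochondrial topoisomerase, rose by 0.29 (adjusted p = 0.00359). Tfam, which packs mitochondrial DNA and activates its promoters, did not pass the test (log2 fold change 0.09, SE 0.0565, adjusted p = 0.217).

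Of 9 tested nuclear regulators of respiratory genes, 1 was lower and 2 were higher (11.1% and 22.2%, beside 19.8% and 20.4% over all genes). Pprc1, a coactivator of the PGC-1 family, fell by 0.15 (adjusted p = 0.000325). Yy1 rose by 0.14 (adjusted p = 0.00515), and Perm1 rose by 1.21 (adjusted p = 3.86e-07) from 1.68 to 2.21 CPM to 3.96 to 4.89 CPM. The 2 factors whose strings were searched in promoters beside YY1 did not pass the test, with Nrf1 at a log2 fold change of 0.00 (SE 0.0541, adjusted p = 0.971) and Gabpa, the DNA-binding part of GABP, at -0.05 (SE 0.0438, adjusted p = 0.409). Ppargc1a (PGC-1α) was under the filter, at 0.143 to 0.347 CPM in all samples.

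Modulators of the chain in inflammation and hypoxia held the largest share of calls among these lists, with 7 of 12 tested genes higher and 3 lower (58.3% and 25%). The list was made of genes tied to inflammation or hypoxia, with earlier results of these data known, so its share is a description only. Higher and lower genes made up 20.4% and 19.8% of all genes tested. Nos2, whose product nitric oxide inhibits complex IV, was 64.4 to 73.9 CPM with IL-1β and 1.31 to 1.91 with vehicle (log2 fold change 5.40, SE 0.0892, edgeR, adjusted p = 1.54e-27). Sod2, the superoxide dismutase of the mitochondrial matrix, rose from 107 to 112 CPM to 665 to 709 CPM (log2 fold change 2.64, SE 0.034). AA467197, the mouse gene of NMES1, a paralog of Ndufa4, was 2.97 to 4.05 CPM with IL-1β and 1.33 to 1.77 with vehicle (log2 fold change 1.13, SE 0.185, edgeR, adjusted p = 1.21e-05). Of genes tied to hypoxia, Pdk1, which restrains entry of pyruvate into the citric acid cycle, rose by 0.63, Higd1a, which associates with complexes III and IV, by 0.55, and Hif1a by 0.52, while Higd2a rose by 0.33. The lower ones were the ATP/ADP carriers Slc25a4 (-0.28) and Slc25a5 (-0.15) and Atpif1 (-0.17), the inhibitor of reverse ATP synthase activity, with adjusted p-values of 1.92e-07, 0.000266 and 0.0228.

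**Figure D5:**
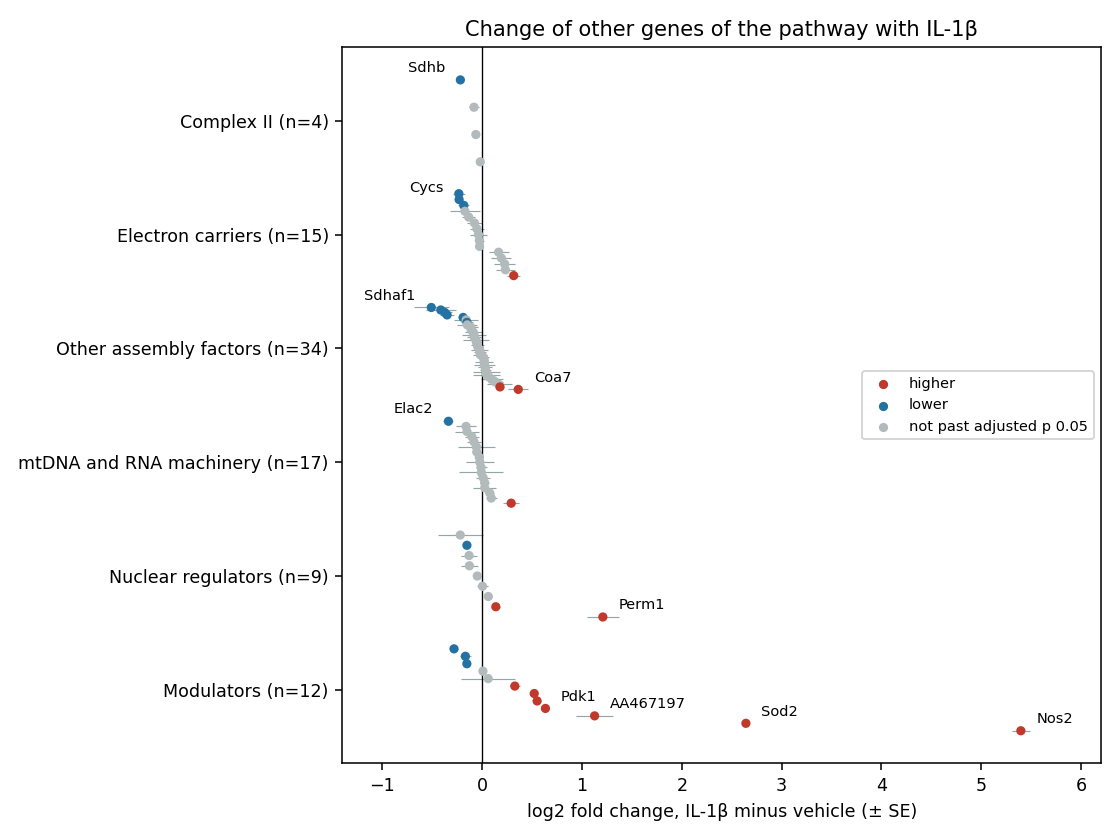
Log2 fold changes (x axis, IL-1β minus vehicle, with standard errors) of the genes of 6 further lists are drawn as in the plot of the members. Complex II, carriers, assembly factors and the mitochondrial DNA and RNA machinery lie within 0.51 of 0, while Nos2 reaches 5.40 and Sod2 2.64 among the modulators.

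Members just inside and outside the filter had low values. Among the 97 members, the smallest count in a sample was 44, in Ndufaf5, an assembly factor of complex I. Of the 9 names that were left out, Cox7a1 had the highest mean level, Ndufb4c, annotated as a processed pseudogene, had 3 to 20 counts, and Cox7b2 had 0 in every sample. Cox6b2, the testis isoform, had 1 to 8 counts, and Cox6c2, Cox8c, Ndufa11b and Ndufs6b had at most 15. Levels of 18 of the 84 nuclear members could be shared with a near-identical copy elsewhere in the genome (at least 97% identity over 100 bases or more), and 12 had over 10% of their exon bases in another annotated gene. Usmg5, a subunit of complex V whose symbol lies outside the name rule, fell by 0.31 on the log2 scale (SE 0.0623, edgeR, adjusted p = 0.000165).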

How the data were processed

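RNA-Seq of 8 samples was analysed, 4 treated with IL-1β and 4 with vehicle, grouped by the sample labels. The authors removed low-quality bases (cutadapt), mapped the reads to mm10 by STAR (version 2.4.2a per the submitters' processing notes) and a GENCODE annotation, and counted them per gene with featureCounts. The deposited table holds these whole-number counts, without normalization, and an exon length per gene. All 8 of its columns of counts were matched to a sample, so 0 were left over. The study's methods name RUVseq for batch correction, and the labels give no batch, so no batch term was used and a fit with 1 RUVs factor, written out in R, was an alternative. Mapping and counting settings for reads with several places, and strand, are not given in the sources used here.

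The members, gene lists and tests were chosen with earlier results of these data known. Every gene whose CPM exceeded 1 in 4 or more of the 8 samples was tested with edgeR 4.0.16 (R 4.3.3, limma 3.58.1), with TMM scaling, glmQLFit, glmQLFTest, treatment as the only term and Benjamini-Hochberg adjustment over 14404 genes, called at 0.05. The study used DESeq2, which was run as an alternative (1.42.0). Printed levels are CPM on TMM-scaled library sizes, mean ± SD over samples, and levels per kb are divided by the deposited length, which sums all exons and so understates genes with many transcripts. The common biological coefficient of variation was 4.11%, with 20.9 prior degrees of freedom. A count of 3, used as the floor, was 0.172 to 0.273 CPM. On simulated counts with known changes for this comparison (14337 genes), edgeR recovered 92% of 1.3-fold and 100% of 2-fold changes with 9 false calls. DESeq2 recovered 81% and 100%, with 5 false calls. Every gene was simulated with the same biological variation, and only a small share of genes was changed. Recovery of changes under 1.3-fold, which most members showed, was not measured.

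Named genes were the 13 mitochondrial mRNAs, 16 core nuclear subunits (1 of which is not reported here), listed isoforms and paralogs, members past the threshold of the study, the called members with the 2 highest and 2 lowest log2 fold changes of each complex and of the assembly factors, and called genes of the pathway lists. Alternatives were DESeq2, other scalings, other filters, a replicate block, 1 RUVs factor, a test against a fold of 1.2, complexes I and IV with Ndufa4 and Ndufa4l2 moved, and the omission of each sample. A scaling without Gm26917, mitochondrial mRNAs summed with their copies and mitochondrial mRNAs outside the repeated stretch were chosen after seeing the data. Near-identical copies were found with blastn 2.17.0 (at least 97% identity over 100 bases) on GRCm38 and a GENCODE release later than that of the authors, in which 54000 of 54658 symbols matched 1 gene. Promoter windows were from RefSeq, and no windows for Ndufa4l2 and Cox4i2, microRNA data or protein sequences were used here. The same replicate numbers in both groups were not treated as pairs, since the labels do not state a pairing. Correlations of the deviations of same-numbered samples from their group means were 0.0322, -0.0407, -0.0131 and -0.0632. Values near 0 show no pairing effect but cannot settle whether such samples shared an origin.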

Additional observations from a re-analysis of the deposited data

Results flagged for a closer look

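Groups of 4 values were screened for a sample far from the other 3 (Dixon's test at the 95% level). Of 104 groups examined among the named genes, 10 held such a sample, where chance gives about 1 in 20, or 5.2. All values are CPM, and their causes were not tested.

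IL-1β replicate 4 stood above its group in 3 genes, 2 of them mitochondrial mRNAs within the stretch that chromosome 1 repeats. It was at 82.2641 for mt-Co2 (others 59.5 to 60.7) and at 44.607 for mt-Nd4l (others 33.0 to 34.4), and at 133.466 for Atp5g2 (others 126.9 to 127.4). IL-1β replicate 2 was low for Atp5e, at 30.1451 (others 35.2 to 35.4), and high for Uqcrc2, at 56.0353 (others 51.8 to 52.4). Replicate 1 of the same treatment was low for Atp5b, at 610.478 (others 653 to 657).

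Among the vehicle samples, replicate 2 was high for Atp5b, at 760.584 (others 730.2 to 733), and for Cox4i1, at 152.175 (others 149.6 to 149.9). Replicate 1 was low for Atp5g1, at 200.932 (others 208 to 209), and replicate 4 was high for Ndufa4l2, at 120.004 (others 106.6 to 108.7). In Atp5b, Atp5e, Atp5g1, Uqcrc2 and Ndufa4l2, the 2 treatments still did not overlap.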

How the results depend on the processing

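Of 186 alternatives of the group medians and sums, 138 were of medians and 48 of sums, and no sum moved by more than the replicate SD. The direction stayed the same except for the sum of complex IV, which was -1.90 to 0.189% when 1 sample was left out. The median log2 fold change of the members was -0.0648 to -0.0400. Medians over genes have no replicate SD, and some moved when 1 sample was left out. That of the mitochondrial mRNAs was -0.0777 to -0.0189. Those of complex I, complex V and the assembly factors went from -0.0307, -0.0522 and -0.0664 to as low as -0.0578, -0.0828 and -0.1122. Of the 5 higher members, 2 were higher by DESeq2, 3 without a filter on low counts and 1 against a fold of 1.2. The numbers for nuclear subunits were 2 by DESeq2 and 3 without a filter, and for complex I 0 and 1. Against a fold of 1.2, 3 members were lower, and 1212 genes were higher and 952 lower among all tested, where fewer genes can pass by construction. Past the 2-fold threshold were 1206 genes without the filter. Of mitochondrial mRNAs, 2 were lower with total library sizes, 3 without a filter, 2 with 1 RUVs factor and 0 among the 5 outside the repeated stretch, which leaves out mt-Co1. With 1 RUVs factor 1 complex V subunit was higher. By DESeq2 0 assembly factors were lower. With Ndufa4l2 counted to complex I, complex IV kept 1 higher subunit.

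Leaving out 1 sample at a time gave 2 to 9 higher members and 22 to 31 lower ones, 2 to 9 higher nuclear subunits, 1 to 5 lower mitochondrial mRNAs, 0 to 1 lower assembly factors, 0 to 4 higher subunits of complex I, and 0 to 1 of complex III and of complex V. The replicate numbers are not stated to mark pairs. With them as a replicate block, 4 members were higher and 27 lower, 30 of them among the 32 called without it, and 2 mitochondrial mRNAs were lower. Of 24 named members called, 18 were called in all of their alternatives other than the test against a fold of 1.2, under which 4 members stayed called. The causes of these moves were not tested. With 4 samples a group and a median standard error of 0.0441 for nuclear genes, changes of a few percent could go uncalled. The smallest change called among nuclear subunits was -6.70%, in Atp5f1.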

Other observations

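Levels per kb varied over the 75 nuclear subunits of the 4 complexes. With vehicle, the median was 42.1 CPM per kb, the highest was Cox6a1 at 364 and the lowest Ndufb2 at 1.26. Because the deposited length sums all exons, part of this range goes with the number of annotated transcripts, which was not tested. The replicate CV in the vehicle samples had a median of 3.98% for nuclear subunits and 7.02% for mitochondrial mRNAs, with mt-Atp8 highest at 30.9%.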
